A study of Homo sapiens with 12 samples.

Results

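The genes described here encode the proteasome: the subunits of its core particle, its regulatory cap and its immune form, its activators and its inhibitor, and the chaperones that assemble it. They were chosen by symbol, as every gene whose name starts with PSM, a letter from A to G and a number, leaving out antisense RNAs and pseudogenes. The rule found 49 of the 26364 genes in the count table, and 5 antisense RNAs matched the pattern and were left out. Of the 49, PSMC3IP is no proteasome gene by function: its product, known as HOP2, acts in homologous recombination. PSMB11, the thymus-specific form of the catalytic subunit, had 1 count in each of 2 libraries and was too low to test, which left 48 tested genes.

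The proteasome degrades proteins that carry ubiquitin chains. Its barrel-shaped core is built from outer alpha rings, which gate the entrance, and inner beta rings, which hold the catalytic subunits PSMB5 (cleavage after hydrophobic residues), PSMB6 (after acidic residues) and PSMB7 (after basic residues). The cap binds, unfolds and feeds substrates with a ring of ATPases and a lid that removes ubiquitin. In immune cells, B cells among them, and after interferon-gamma, PSMB8, PSMB9 and PSMB10 take the places of PSMB5, PSMB6 and PSMB7 in new particles. PSME1 and PSME2 form an activator ring that interferon also induces, and together these 5 genes make up the immunoproteasome set used here. Lymphomas of mature B cells, mantle cell lymphoma included, are treated with drugs that block PSMB5.

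Polyadenylated RNA was sequenced from cultures labelled JeKo-1 and Granta-519, established human lines from mantle cell lymphoma grown in RPMI1640 medium with serum. Each line received chidamide, an inhibitor of class I histone deacetylases, or vehicle. The 4 groups were JeKo-1 with 4 µM chidamide, Granta-519 with 4 µM chidamide, JeKo-1 with vehicle and Granta-519 with vehicle, all for 12 h and with 3 libraries each. Whether replicates came from separate cultures was not stated, and p-values therefore reflect no more than library-to-library spread, possibly technical.

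Library totals ran from 12873642 to 16592694 counts. All 6 B-cell markers examined, among them MS4A1 and PAX5, were detected in every group. The mantle cell lymphoma genes went against the JeKo-1 label: SOX11 had 0 counts in its chidamide and its vehicle libraries, and CCND1 had 44 counts over the 3 chidamide and 5 over the 3 vehicle libraries. Granta-519 chidamide libraries held 5788 counts of SOX11 and 75957 of CCND1, and vehicle libraries 7225 and 97605 counts. JeKo-1 is known to express both, so the text names these libraries only by what they are labelled, and every result for them rests on the label. The summed level of 6 myeloid markers was 12.4 to 13.3 CPM (counts scaled to a common library size) in chidamide and 0.414 to 0.888 CPM in vehicle libraries with the JeKo-1 label, and 19.4 to 21.3 CPM in chidamide and 1.07 to 1.64 CPM in vehicle libraries of Granta-519. Most of it after chidamide was CSF1R, and FCGR3A was at 0 counts in all 4 groups. Summed T-cell markers stayed at or below 3.97 CPM. Epithelial and stromal markers, mostly COL1A1, summed to 30 to 34.2 CPM in chidamide and 24.7 to 28.2 CPM in vehicle libraries with the JeKo-1 label, and 65.5 to 70.6 CPM in chidamide and 58.0 to 63.8 CPM in vehicle libraries of Granta-519. The part of these markers in the results was not tested.

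Most proteasome genes were lower after chidamide in both lines. Under the JeKo-1 label 40 of 48 tested genes fell, against a background of 31.1% of all 15087 tested genes that fell. There 2 rose (background 35.3%), PSMB8 and the testis form PSMA8, which is low and is described separately, and 6 did not pass: PSMA1, PSMA6, PSMB1, PSMB9, PSMC5 and PSMD10. In Granta-519 43 fell (background 31.3%), 2 rose, PSMA8 and the cap chaperone PSMD5 (background 39.6%), and PSMB9, PSME4 and PSMG3 did not pass. All counts are at a Benjamini-Hochberg adjusted p under 0.05 over all tested genes in edgeR's quasi-likelihood test. In both lines 37 of the 48 fell, against 22.4% of all tested genes.

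The median log2 change of the 48 genes was −0.39 under the JeKo-1 label and −0.48 in Granta-519, where the medians of all tested genes were 0.04 and 0.08. Falls were mostly moderate: 17 genes fell by 0.5 or more on the log2 scale under the JeKo-1 label and 22 in Granta-519, and 1 and 3 fell by 1 or more. The genes together took 0.607 to 0.617% of all counts in chidamide and 0.721 to 0.747% in vehicle libraries with the JeKo-1 label. Granta-519 libraries gave them 0.544 to 0.558% after chidamide and 0.743 to 0.754% in vehicle. In each line all 3 chidamide libraries were therefore below all 3 vehicle libraries in this share. By gene, chidamide and vehicle libraries did not overlap for 40 genes that were lower (background 31.4%) and 2 that were higher (background 35.2%) under the JeKo-1 label. In Granta-519 these counts were 43 lower (background 32.5%) and 3 higher (background 41.3%). No spike-in RNA was named, so every level is relative to the rest of the library, and fewer cells with a transcript cannot be told apart from less RNA per cell.

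**Figure D1:**
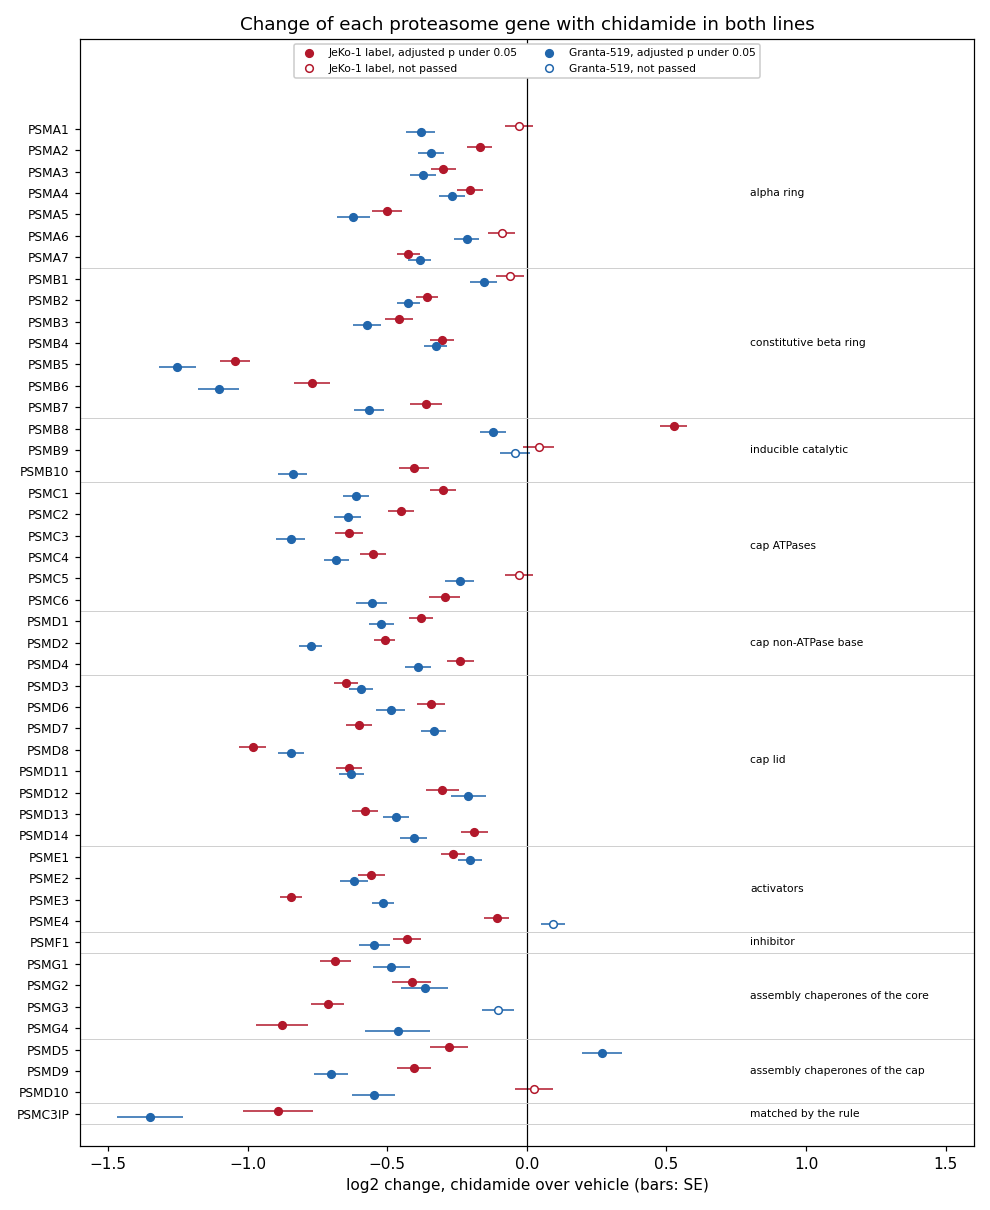
Log2 change with chidamide over vehicle for 47 tested proteasome genes, one row per gene grouped by role, with the JeKo-1 label in red and Granta-519 in blue; bars are standard errors, filled points passed an adjusted p under 0.05, and PSMA8 (3.92 and 3.73) is off the scale and not drawn. Nearly all points lie left of 0, PSMB5 (−1.05 and −1.25) is among the farthest left in both lines, and PSMB8 lies at 0.53 under the JeKo-1 label.

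Of the 14 constitutive core genes 11 fell under the JeKo-1 label, with a median log2 change of −0.33, and all 14 fell in Granta-519, with a median of −0.38. The sum of the 14 was 2258 ± 32.0 CPM after chidamide and 2840 ± 72.4 CPM in vehicle under the JeKo-1 label, and 1951 ± 39.1 CPM after chidamide and 2535 ± 34.7 CPM in vehicle in Granta-519 (SD, n = 3 each). In the alpha ring, whose 7 somatic genes PSMA1 to PSMA7 encode non-catalytic subunits, PSMA5 and PSMA7 had the largest falls under the JeKo-1 label (log2 change −0.50 ± 0.05 and −0.42 ± 0.04, SE). The corresponding changes in Granta-519 were −0.62 ± 0.06 for PSMA5 and −0.38 ± 0.04 for PSMA7. PSMA1 and PSMA6 did not pass under the JeKo-1 label (−0.03 ± 0.05 and −0.09 ± 0.05; edgeR adjusted p = 0.629 and 0.0927), whereas both fell in Granta-519 (−0.38 ± 0.05 and −0.22 ± 0.04). Without either vehicle replicate 2 or vehicle replicate 3 of the JeKo-1 label, PSMA6 passed there too (−0.11 and −0.12).

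Transcripts of subunits that occur in equal numbers in the particle were not equally abundant. Per kilobase of transcript, vehicle levels of the 14 core genes under the JeKo-1 label ran from 39.7 CPM per kb for PSMA5 to 520 CPM per kb for PSMA7, a 13.1-fold range. In Granta-519 vehicle libraries they ran from 21.7 CPM per kb for PSMA5 to 390.2 CPM per kb for PSMB4, a 17.9-fold range. The 17 cap genes spanned 8.33-fold and 10.4-fold in the same libraries, with PSMD12 lowest in both. By the deposited length-scaled score the cap spanned 5.75-fold under the JeKo-1 label and 4.71-fold in Granta-519 vehicle libraries, with PSMD11 lowest. The score and the transcript lengths used here did not match for all genes. Among cap genes, CPM per score unit per kilobase ran from 1.79 for PSMC1 to 10.2 for PSMD11. Whether the score or the lengths account for this range was not tested. The order and the range of the cap therefore depend on the measure used.

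Among beta-ring genes the changes were largest in the catalytic subunits PSMB5 and PSMB6. PSMB5 had 77.1, 75.6 and 75.3 CPM in the chidamide and 155, 168 and 148 CPM in the vehicle libraries with the JeKo-1 label. In Granta-519 it had 23.9, 26.7 and 23.8 CPM after chidamide, against 60.5, 57.4 and 59.2 CPM in vehicle. Chidamide and vehicle libraries were far apart in both lines, and the log2 changes were −1.05 ± 0.05 and −1.25 ± 0.07 (SE; edgeR adjusted p = 3.37e-24 and 9.67e-24). PSMB6 stood at 44.8, 52.8 and 48.8 CPM after chidamide and 86.8, 82.8 and 79.3 CPM in vehicle under the JeKo-1 label, and at 23.2, 21.0 and 21.0 CPM after chidamide and 48.9, 45.6 and 45.8 CPM in vehicle in Granta-519. Again the groups did not overlap in either line, with log2 changes of −0.77 ± 0.06 and −1.11 ± 0.07 (edgeR adjusted p = 9.73e-16 and 2.67e-19).

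PSMB7, the remaining constitutive catalytic subunit, had smaller changes. Its levels were 54.7, 56.2 and 56.4 CPM after chidamide and 70.8, 70.6 and 73.7 CPM in vehicle under the JeKo-1 label, and 69.6, 64.7 and 64.9 CPM after chidamide and 97.2, 97.1 and 101 CPM in vehicle in Granta-519. The groups did not overlap, and the log2 changes were −0.36 ± 0.06 and −0.57 ± 0.05 (edgeR adjusted p = 1.52e-07 and 1.17e-13). The structural beta subunits PSMB2, PSMB3 and PSMB4 fell in both lines, by 0.30 to 0.46 on the log2 scale under the JeKo-1 label and by 0.33 to 0.57 in Granta-519. PSMB1, also without an active site, did not pass under the JeKo-1 label (−0.06 ± 0.05; edgeR adjusted p = 0.308) and fell in Granta-519 (−0.16 ± 0.05; edgeR adjusted p = 0.0048). That call was lost without Granta-519 chidamide replicate 3 (−0.11; edgeR adjusted p = 0.0561), with upper-quartile scaling and in DESeq2, and under the JeKo-1 label PSMB1 passed without vehicle replicate 3 (−0.13).

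The immunoproteasome genes did not follow the core and the cap as a block. Under the JeKo-1 label PSMB8 rose, PSMB10, PSME1 and PSME2 fell and PSMB9 did not pass, with a median log2 change of −0.26 over the 5. In Granta-519 4 fell and PSMB9 did not pass, with a median of −0.20. Their summed level was 654 ± 5.30 CPM after chidamide and 721 ± 33.6 CPM in vehicle under the JeKo-1 label, and 629 ± 22.7 CPM after chidamide and 785 ± 9.76 CPM in vehicle in Granta-519 (SD, n = 3 each).

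Sequence upstream of the genes whose exchange is described next was read from RefSeq promoter windows on GRCh38.p14, which is a later build than the hg19 used for the counts. Windows of 250 bases before to 50 after a start were available for 43 of the 49 genes (53 windows). The 3 inducible subunit genes and PSMB5 are shown because their counts moved differently, PSMB6 and PSMB7 having no window in the table used, each as 120 bases before to 30 after the start, 5′ to 3′ on the strand of the gene. Capitals mark letters that match GAAA, any 2 bases and GAAA again, the interferon-stimulated response element, or TTCNNNGAA, the gamma-interferon activated site, on either strand. PSMB8 and PSMB5 each have a further start in the table, and the start with a match in this stretch, chosen after the search, was printed. The regions are chr6:32844018-32844167 (PSMB8, minus strand), chr6:32854072-32854221 (PSMB9, plus strand), chr16:67936821-67936970 (PSMB10, minus strand) and chr14:23034871-23035020 (PSMB5, minus strand).
PSMB8: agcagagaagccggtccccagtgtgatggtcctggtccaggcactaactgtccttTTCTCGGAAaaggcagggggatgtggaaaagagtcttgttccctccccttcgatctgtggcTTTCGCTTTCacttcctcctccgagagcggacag
PSMB9: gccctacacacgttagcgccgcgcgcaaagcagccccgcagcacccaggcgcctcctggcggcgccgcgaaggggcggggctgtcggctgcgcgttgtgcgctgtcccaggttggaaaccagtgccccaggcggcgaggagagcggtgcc
PSMB10: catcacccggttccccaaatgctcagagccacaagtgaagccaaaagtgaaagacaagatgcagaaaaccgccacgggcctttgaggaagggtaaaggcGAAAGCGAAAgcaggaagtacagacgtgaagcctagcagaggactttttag
PSMB5: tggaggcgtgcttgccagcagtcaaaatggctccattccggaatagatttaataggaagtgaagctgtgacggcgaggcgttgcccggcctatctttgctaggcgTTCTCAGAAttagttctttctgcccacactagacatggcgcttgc

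A match of the interferon-stimulated response element lay in 7 of the 53 windows of these genes (13.2%) and in 3.57% of all 35116 windows of the table. The 7 belonged to PSMA4, PSMB4, PSMB8, PSMB10, PSME1, PSME2 and PSMG4. Of these genes, PSMB8 rose and the other 6 fell under the JeKo-1 label, and all 7 fell in Granta-519. Of all 48 tested genes 40 and 43 fell, so these numbers do not set the 7 apart. The fall of PSMB8 in Granta-519 was lost in 6 of 14 alternatives. TTCNNNGAA matched 8 of the 53 windows (15.1%) and 7.66% of all windows. TGACNNNGC, the core of the antioxidant response element that NFE2L1 binds, matched 15 (28.3%) and 13.4% of all, and CCAAT matched 22 (41.5%) and 34.6% of all. CACGTG, the E-box letters bound by MYC among others, matched 3 windows (5.66%) and 7.26% of all. A match of letters is a description of the window and no measured binding site.

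PSMB8 was the 1 somatic proteasome gene that rose under the JeKo-1 label. It had 157, 159 and 157 CPM after chidamide, against 107, 117 and 104 CPM in vehicle, so every chidamide library was above every vehicle library. The log2 change was 0.53 ± 0.05 (edgeR adjusted p = 5.47e-14), 1.44-fold, and ran from 0.49 to 0.67 over 14 alternative settings and left-out libraries. In Granta-519 it had 217, 217 and 194 CPM after chidamide and 235, 228 and 222 CPM in vehicle, a small fall of −0.12 ± 0.05 (edgeR adjusted p = 0.0156). That fall was lost in 6 of 14 alternatives, among them those without chidamide replicate 3 (−0.05; edgeR adjusted p = 0.314) and without vehicle replicate 1 (−0.11; edgeR adjusted p = 0.0665). The antisense RNA PSMB8-AS1, which overlaps this locus, also rose under the JeKo-1 label (log2 change 0.87 ± 0.15), at 8.62 ± 0.97 CPM after chidamide and 4.66 ± 1.01 CPM in vehicle (SD, n = 3). As the strand setting of the counting was not given, reads of the 2 genes cannot be told apart where they overlap.

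PSMB9 passed in neither line. Under the JeKo-1 label it had 105, 107 and 107 CPM after chidamide and 92.6, 113 and 105 CPM in vehicle, and in Granta-519 116, 107 and 107 CPM after chidamide and 114, 113 and 112 CPM in vehicle. The groups overlapped in both lines, and neither change passed (0.04 ± 0.05 and −0.04 ± 0.05; edgeR adjusted p = 0.521 and 0.49). It passed as a rise under the JeKo-1 label without vehicle replicate 2 (0.12; edgeR adjusted p = 0.0451) and with upper-quartile scaling, library-size scaling and the length-scaled score. In Granta-519 it passed as a fall with no count filter (−0.15; edgeR adjusted p = 0.00995) and in a separate fit (−0.11; edgeR adjusted p = 0.034). PSMB10 had 73.2, 75.1 and 72.7 CPM after chidamide and 97.8, 103 and 91.6 CPM in vehicle under the JeKo-1 label, and 84.8, 90.1 and 82.1 CPM after chidamide and 156, 153 and 151 CPM in vehicle in Granta-519. Groups did not overlap in either line, and the falls were −0.41 ± 0.05 and −0.84 ± 0.05 (edgeR adjusted p = 2.09e-09 and 4.04e-21).

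PSME1 and PSME2, subunits of the interferon-induced activator ring, fell in both lines. PSME1 had 205, 199 and 199 CPM after chidamide and 234, 247 and 243 CPM in vehicle under the JeKo-1 label, and 141, 138 and 134 CPM after chidamide and 155, 163 and 158 CPM in vehicle in Granta-519. PSME2 had 119, 112 and 114 CPM after chidamide and 164, 179 and 165 CPM in vehicle under the JeKo-1 label, and 86.0, 85.2 and 85.4 CPM after chidamide and 129, 134 and 130.4 CPM in vehicle in Granta-519. No groups overlapped. PSME1 changed by −0.26 ± 0.04 under the JeKo-1 label and −0.20 ± 0.04 in Granta-519 (edgeR adjusted p = 2.76e-07 and 5.71e-05), and PSME2 by −0.56 ± 0.05 and −0.62 ± 0.05 (edgeR adjusted p = 2.27e-15 and 1.78e-16).

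**Figure D2:**
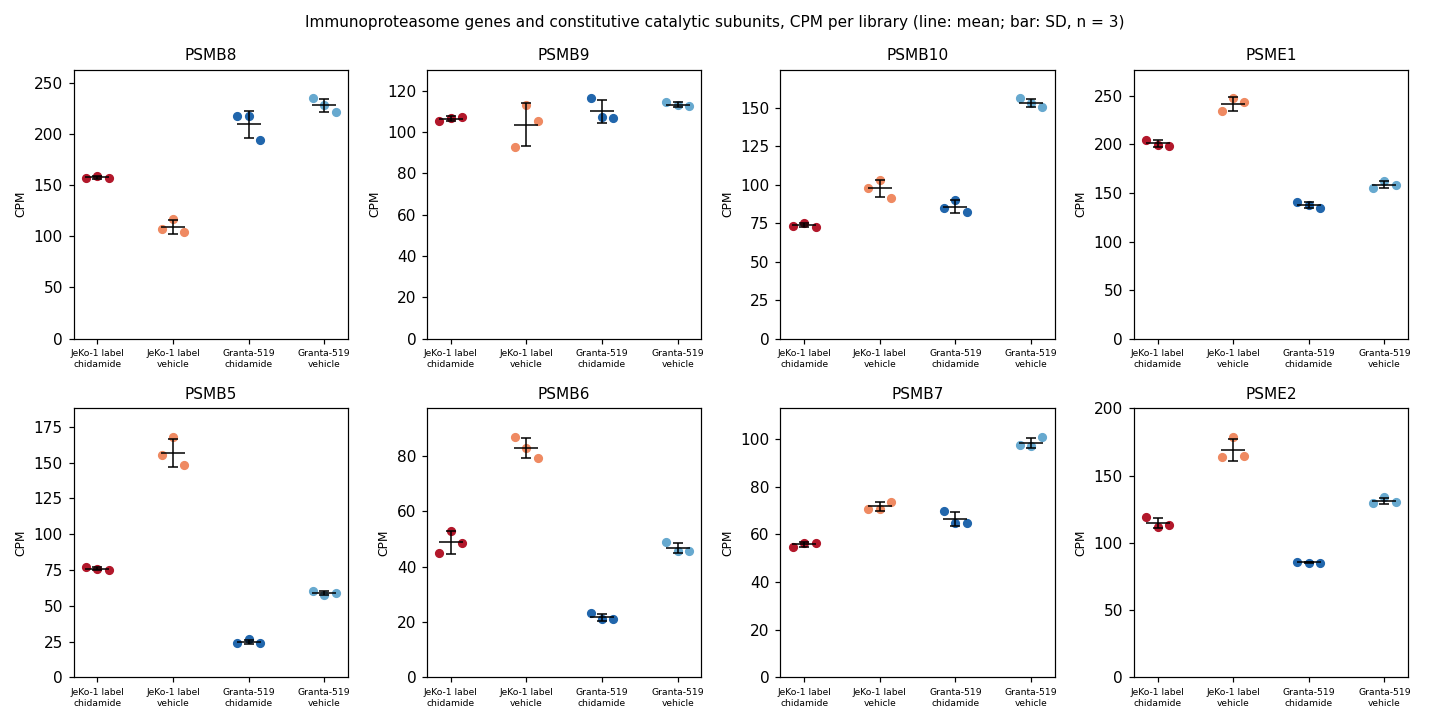
CPM per library, one panel per gene, for the 5 immunoproteasome genes and the constitutive catalytic subunits PSMB5, PSMB6 and PSMB7; points are libraries, the line is the mean and the bar the SD of 3 libraries, with each axis from 0. Chidamide libraries of PSMB8 under the JeKo-1 label (157 to 159 CPM) stand above those in vehicle (104 to 117 CPM), PSMB9 groups overlap, and PSMB5 and PSMB6 are lower after chidamide in both lines.

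Because each inducible subunit replaces 1 constitutive partner, the ratio of their counts within a library was also taken; it does not depend on how libraries are scaled. PSMB8 over PSMB5 was 2.08 ± 0.034 after chidamide and 0.697 ± 0.0051 in vehicle under the JeKo-1 label, a 2.98-fold difference. In Granta-519 the ratio was 8.47 ± 0.54 after chidamide and 3.87 ± 0.11 in vehicle, 2.19-fold (SD, n = 3 each). Under the JeKo-1 label the vehicle libraries held fewer PSMB8 than PSMB5 counts and the chidamide libraries more, and per transcript length the ratios were 2.39 and 0.803. Granta-519 had more PSMB8 than PSMB5 in both groups (9.75 after chidamide and 4.45 in vehicle per transcript length).

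PSMB9 over PSMB6 was 2.19 ± 0.16 after chidamide and 1.25 ± 0.16 in vehicle under the JeKo-1 label (1.76-fold), and 5.07 ± 0.051 and 2.43 ± 0.073 in Granta-519 chidamide and vehicle libraries (2.09-fold). PSMB9 itself did not pass in either line, and PSMB6 fell in both. PSMB10 over PSMB7 was 1.32 ± 0.027 after chidamide and 1.36 ± 0.11 in vehicle under the JeKo-1 label, where libraries overlapped (two-sided exact permutation test, p = 0.7), and 1.29 ± 0.091 after chidamide and 1.56 ± 0.055 in vehicle in Granta-519, 0.827-fold. In the other 5 of these 6 tests within lines the groups did not overlap and the two-sided exact permutation p was 0.1, the smallest that 3 against 3 libraries allow, so no adjustment over the tests could bring one under 0.05.

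**Figure D3:**
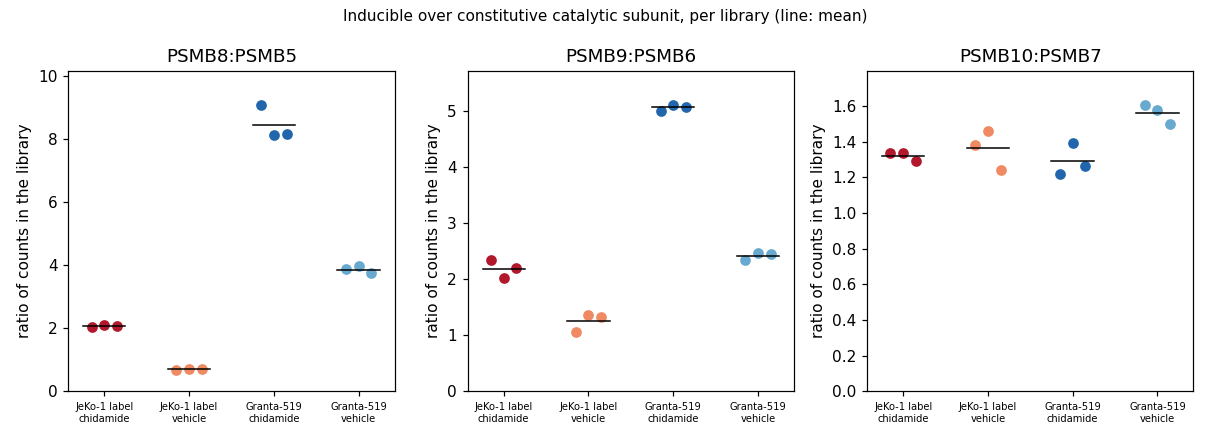
Ratio of counts of each inducible subunit to its constitutive partner in every library, with the mean as a line and axes from 0. PSMB8:PSMB5 and PSMB9:PSMB6 are higher after chidamide in both lines (2.08 against 0.697 and 8.47 against 3.87 for PSMB8:PSMB5), while PSMB10:PSMB7 overlaps under the JeKo-1 label and is lower in Granta-519 (1.29 against 1.56).

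Genes of the regulatory cap fell almost without exception. Of 17 cap genes 16 fell under the JeKo-1 label (median log2 change −0.45), all but PSMC5, and all 17 fell in Granta-519 (median −0.56). Their sum was 2194 ± 22.7 CPM after chidamide and 3059 ± 75.5 CPM in vehicle under the JeKo-1 label, and 1991 ± 23.5 CPM after chidamide and 2962 ± 8.27 CPM in vehicle in Granta-519 (SD, n = 3 each). In both lines every chidamide sum was below every vehicle sum.

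The 6 ATPases, PSMC1 to PSMC6, form the ring that unfolds substrates; 5 fell under the JeKo-1 label (median −0.38) and 6 in Granta-519 (median −0.63). PSMC3 had 132, 138 and 119 CPM after chidamide and 194, 218 and 192 CPM in vehicle under the JeKo-1 label, and 107, 115 and 104 CPM after chidamide and 193, 195 and 197 CPM in vehicle in Granta-519. Its groups did not overlap, and it changed by −0.64 ± 0.05 and −0.85 ± 0.05 (edgeR adjusted p = 2.91e-16 and 7.76e-21). PSMC4 had 93.4, 91.0 and 92.7 CPM after chidamide and 138, 139.6 and 129 CPM in vehicle under the JeKo-1 label, and 144, 141 and 141 CPM after chidamide and 228, 231 and 225 CPM in vehicle in Granta-519. Here too the groups were apart, with changes of −0.55 ± 0.05 and −0.68 ± 0.04 (edgeR adjusted p = 2.86e-15 and 6.67e-20). PSMC5 was the exception, at 129 ± 5.08 CPM after chidamide and 132 ± 7.34 CPM in vehicle under the JeKo-1 label (−0.03 ± 0.05; edgeR adjusted p = 0.637), with a fall of −0.24 ± 0.05 in Granta-519.

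Of the non-ATPase base genes, the scaffold gene PSMD2 changed by −0.51 ± 0.04 under the JeKo-1 label and −0.78 ± 0.04 in Granta-519. PSMD1, the other large scaffold, changed by −0.38 ± 0.04 and −0.52 ± 0.04, and PSMD4, a receptor for ubiquitin chains, by −0.24 ± 0.05 and −0.39 ± 0.05, the first of these lost with upper-quartile scaling. All 8 lid genes fell in both lines, with medians of −0.59 under the JeKo-1 label and −0.48 in Granta-519, though PSMD12 lost its call in Granta-519 with upper-quartile scaling (−0.11). The largest change in the lid was that of PSMD8, a structural subunit: 96.1, 94.9 and 98.5 CPM after chidamide against 189, 203 and 179 CPM in vehicle under the JeKo-1 label, and 122, 121 and 118 CPM after chidamide against 212, 225 and 213 CPM in vehicle in Granta-519. These groups did not overlap, and the changes were −0.98 ± 0.05 and −0.85 ± 0.05 (edgeR adjusted p = 4.01e-25 and 7.57e-23). PSMD14, the enzyme that cuts ubiquitin off substrates, changed by −0.19 ± 0.05 and −0.41 ± 0.05, and its call under the JeKo-1 label was lost with upper-quartile scaling (−0.04), library-size scaling (−0.06) and the length-scaled score (−0.05). PSMD7, the subunit it pairs with, changed by −0.60 ± 0.05 and −0.33 ± 0.05. PSMD3 and PSMD11 changed alike in both lines, by −0.65 ± 0.04 and −0.59 ± 0.04 for PSMD3 and by −0.64 ± 0.05 and −0.63 ± 0.04 for PSMD11.

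PSME3 and PSME4 encode activators of the nuclear proteasome. PSME3 had 216, 214 and 221 CPM after chidamide and 390.1, 400.0 and 380.1 CPM in vehicle under the JeKo-1 label, and 272, 257 and 262 CPM after chidamide and 369.7, 376 and 385 CPM in vehicle in Granta-519. No groups overlapped, and it fell by 0.85 ± 0.04 and by 0.51 ± 0.04 on the log2 scale (edgeR adjusted p = 6.68e-26 and 2.81e-17). PSME4, which serves histone degradation in germ cells, had 183 ± 4.03 CPM after chidamide and 198 ± 10.9 CPM in vehicle under the JeKo-1 label (−0.11 ± 0.04; edgeR adjusted p = 0.0271). That call was lost in 10 of 14 alternatives, among them those without chidamide replicate 2 (−0.08), chidamide replicate 3 (−0.09) or vehicle replicate 1 (−0.05), and 3 of the 10 had the opposite sign. In Granta-519 PSME4 did not pass (0.09 ± 0.04; edgeR adjusted p = 0.0508), and it passed as a rise in 5 of 14 alternatives: without chidamide replicate 2 (0.13), with DESeq2 size factors (0.13), in the DESeq2 test (0.13), with upper-quartile scaling (0.19) and with the replicate block (0.09). PSMF1, an inhibitor of the core in the test tube, changed by −0.43 ± 0.05 under the JeKo-1 label and −0.55 ± 0.06 in Granta-519.

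Chaperones that build the core, PSMG1 to PSMG4, all fell under the JeKo-1 label (median −0.70), and 3 of the 4 fell in Granta-519 (median −0.41). PSMG1 had 76.2, 69.5 and 71.4 CPM after chidamide and 124, 110.2 and 116 CPM in vehicle under the JeKo-1 label, and 32.8, 31.8 and 32.7 CPM after chidamide and 44.9, 44.8 and 46.5 CPM in vehicle in Granta-519. Its partner PSMG2 had 48.8, 51.0 and 49.2 CPM after chidamide and 74.7, 61.1 and 62.3 CPM in vehicle under the JeKo-1 label, and 22.2, 21.0 and 25 CPM after chidamide and 29.4, 29.8 and 28.8 CPM in vehicle in Granta-519. Groups did not overlap for either gene, with changes of −0.69 ± 0.06 and −0.49 ± 0.07 for PSMG1 and −0.41 ± 0.07 and −0.37 ± 0.08 for PSMG2.

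PSMG3 and PSMG4 act together on the alpha ring. PSMG3 had 49.2, 50.1 and 49.7 CPM after chidamide and 78.4, 88.4 and 77.7 CPM in vehicle under the JeKo-1 label, groups far apart (−0.71 ± 0.06; edgeR adjusted p = 1.39e-15). Granta-519 libraries had 76.4, 75.5 and 71.0 CPM of PSMG3 after chidamide and 84.5, 77.7 and 77.1 CPM in vehicle, which did not overlap by a narrow margin and did not pass (−0.10 ± 0.06; edgeR adjusted p = 0.106), although it passed as a fall with no count filter (−0.21) and in a separate fit (−0.17). PSMG4 had 20.7, 19.2 and 18.8 CPM after chidamide and 38.7, 34.2 and 34.8 CPM in vehicle under the JeKo-1 label, again apart (−0.88 ± 0.09; edgeR adjusted p = 3.34e-12). In Granta-519 it had 9.72, 11 and 9.01 CPM after chidamide and 14.8, 15.1 and 11 CPM in vehicle, where the lowest vehicle library lay at the level of the highest chidamide library (−0.46 ± 0.12; edgeR adjusted p = 0.000402).

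The cap chaperones PSMD5, PSMD9 and PSMD10 diverged. PSMD5 had 43.4, 42.6 and 42.6 CPM after chidamide and 54.7, 49.6 and 51.7 CPM in vehicle under the JeKo-1 label, a fall of −0.28 ± 0.07 (edgeR adjusted p = 0.000309). In Granta-519 it had 39.4, 38.0 and 41.1 CPM after chidamide and 33.3, 30.1 and 35.0 CPM in vehicle, a rise of 0.27 ± 0.07 (edgeR adjusted p = 0.000821), so the groups were apart in opposite directions. The fall under the JeKo-1 label was lost with upper-quartile scaling (−0.13), library-size scaling (−0.15) and the length-scaled score (−0.14), and the rise in Granta-519 with no count filter (0.16). Its antisense neighbour PSMD5-AS1 rose in both lines: 53.4 ± 1.89 CPM after chidamide and 39.6 ± 1.47 CPM in vehicle under the JeKo-1 label, and 39.9 ± 2.00 CPM after chidamide and 12.4 ± 0.52 CPM in vehicle in Granta-519 (SD, n = 3; log2 changes 0.43 ± 0.07 and 1.69 ± 0.08). Strand was not given, so its share of the PSMD5 counts was not tested.

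PSMD10, known as the oncoprotein gankyrin, had 55.9, 49.2 and 50.1 CPM after chidamide and 53.6, 46.8 and 52.2 CPM in vehicle under the JeKo-1 label, overlapping groups that did not pass (0.03 ± 0.07; edgeR adjusted p = 0.779). It fell in Granta-519, at 26.3, 25.8 and 25.7 CPM after chidamide and 39.5, 37.3 and 37.1 CPM in vehicle (−0.55 ± 0.08; edgeR adjusted p = 5.99e-09). PSMD9 fell in both lines (−0.40 ± 0.06 and −0.70 ± 0.06).

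The testis form of an alpha subunit, PSMA8, was counted almost only after chidamide. Its counts were 50, 47 and 32 in chidamide and 0, 3 and 4 in vehicle libraries with the JeKo-1 label, and 5, 4 and 8 in chidamide and 1, 0 and 0 in vehicle libraries of Granta-519. Since it entered the test only through its level in chidamide libraries with the JeKo-1 label, its call is no support for a change and the counts are given as a description. Per library total, the summed counts gave a ratio of 17.3 under the JeKo-1 label, with an exact 95% interval of 8.16 to 43.9, and of 18.0 in Granta-519, with an interval of 2.82 to 751; both intervals cover counting error only. Even after chidamide PSMA8 stood at 2.78 ± 0.67 CPM under the JeKo-1 label and 0.389 ± 0.136 CPM in Granta-519. PSMC3IP, the recombination gene caught by the rule, had 6.32, 8.10 and 8.91 CPM after chidamide and 13.6, 14.8 and 14.8 CPM in vehicle under the JeKo-1 label, and 6.85, 8.61 and 8.20 CPM after chidamide and 21.9, 18.6 and 19.8 CPM in vehicle in Granta-519. Its groups were apart in both lines (−0.89 ± 0.12 and −1.35 ± 0.12), and without it 39 of 47 tested genes fell under the JeKo-1 label and 42 of 47 in Granta-519.

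Whether the lines differed in their response was tested as the difference of the drug effects, JeKo-1 label minus Granta-519. It passed for 22 of 48 genes, against 39.5% of all tested genes: 16 were more positive with the JeKo-1 label (background 20.0%) and 6 more negative (background 19.5%). The median difference was 0.12, beside 0.02 for all tested genes. Of the 37 genes that fell in both lines, 25 had the larger fall in Granta-519 and 12 under the JeKo-1 label. Of the 37, 15 passed the test of the difference. The split into 25 and 12 was not taken over all genes that fell in both lines, nor under other scalings. Library-size scaling moved the difference of all tested genes by a median of 0.136. How many genes differ depends on the scaling of libraries: with library-size scaling, with no count filter and with the deposited length-scaled score, 32 were more positive and 3 more negative.

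PSMB8 had the most positive difference (0.65 ± 0.07; edgeR adjusted p = 1.07e-11), since it rose under the JeKo-1 label and fell slightly in Granta-519. PSMD10 followed (0.57 ± 0.10; edgeR adjusted p = 5.91e-06), then PSMC3IP (0.46 ± 0.17; edgeR adjusted p = 0.0311) and PSMB10 (0.43 ± 0.07; edgeR adjusted p = 3e-06). In the ATPase ring 5 of 6 genes had a significantly more negative change in Granta-519, all but PSMC4. The most negative differences were those of the core chaperone PSMG3 (−0.61 ± 0.08; edgeR adjusted p = 2.13e-08), the cap chaperone PSMD5 (−0.55 ± 0.10; edgeR adjusted p = 8.15e-06), PSMG4 (−0.41 ± 0.15; edgeR adjusted p = 0.0225) and the nuclear activator PSME3 (−0.33 ± 0.06; edgeR adjusted p = 2.24e-06). The difference of PSMB5 just missed (0.21 ± 0.09; edgeR adjusted p = 0.0506) and passed in 8 of 19 alternatives. These were upper-quartile and library-size scaling, no count filter, the length-scaled score, the replicate block and the runs without vehicle replicate 2 of the JeKo-1 label, Granta-519 chidamide replicate 2 or Granta-519 vehicle replicate 2, with differences of up to 0.37.

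Several differences were near the threshold and were lost when 1 library was left out. Under that check PSMA2 lost its call in 8 of 12 runs (differences of 0.13 to 0.17) and PSMB7 in 7 (0.18 to 0.20). PSMC2 was lost without chidamide replicate 1 or vehicle replicate 2 of the JeKo-1 label, or without chidamide replicate 1 or 2 or vehicle replicate 1 of Granta-519 (0.16 to 0.18). PSMC3 was lost without chidamide replicate 2 or vehicle replicate 1 or 3 of the JeKo-1 label, or chidamide replicate 1 or 3 of Granta-519 (0.16 to 0.19). PSMC3IP was lost without chidamide replicate 2 or 3 or vehicle replicate 1 of the JeKo-1 label, or chidamide or vehicle replicate 1 of Granta-519 (0.34 to 0.43). PSMC5 was lost without chidamide replicate 3 of the JeKo-1 label (0.18), and PSMG4 without its vehicle replicate 1 or Granta-519 chidamide replicate 2 or vehicle replicate 3 (−0.28 to −0.36).

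**Figure D4:**
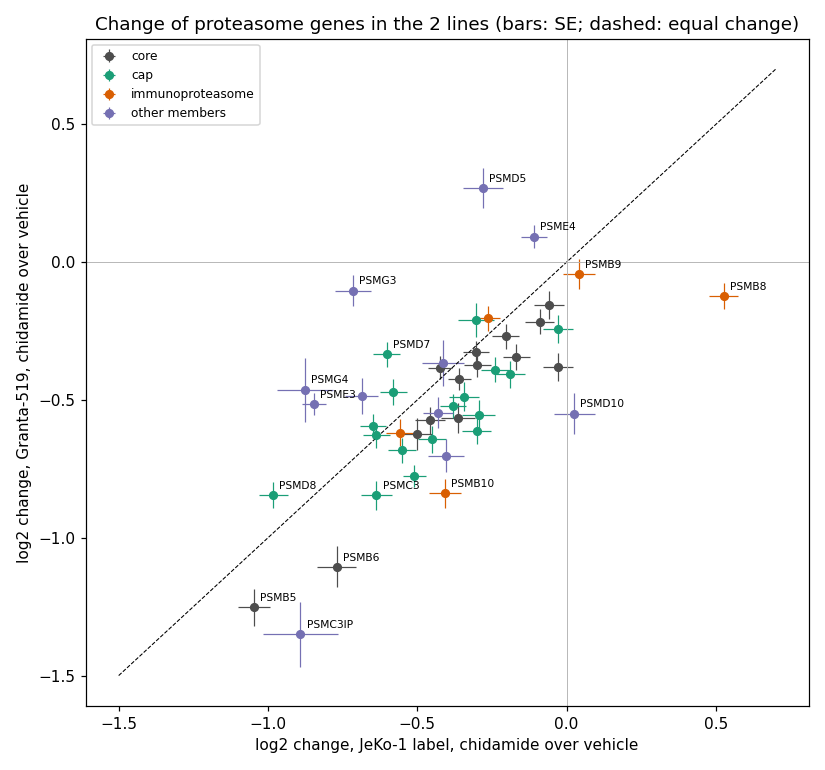
Log2 change with chidamide in Granta-519 (vertical) against that under the JeKo-1 label (horizontal) for 47 tested proteasome genes, coloured by class, with standard errors as bars and equal change as the dashed line; PSMA8 is off the scale and not drawn. PSMB8 (0.53 and −0.12) lies far to the right of the line and PSMG3 (−0.71 and −0.10) and PSMD5 (−0.28 and 0.27) lie above it.

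Between the lines in vehicle, these genes differed about as often as tested genes did in general. Under the JeKo-1 label 22 of 48 genes were higher than in Granta-519 (background 35.5%) and 15 lower (background 44.3%), and vehicle libraries did not overlap for 22 that were higher (background 35.3%) and 16 that were lower (background 44.2%). The median log2 difference, JeKo-1 label over Granta-519, was 0.07, beside −0.13 for all tested genes. Constitutive PSMB5 was 2.66-fold higher with the JeKo-1 label (157 ± 9.84 CPM, against 59.0 ± 1.54 CPM in Granta-519; log2 difference 1.41 ± 0.06; edgeR adjusted p = 1.66e-30), and PSMB6 was 1.78-fold higher. PSMB8, the immune counterpart of PSMB5, was lower (109.5 ± 6.78 CPM with the JeKo-1 label and 228 ± 6.45 CPM in Granta-519; −1.06 ± 0.05; edgeR adjusted p = 2.43e-27), as was PSMB10 (−0.65 ± 0.05). The PSMB8 to PSMB5 ratio was accordingly 0.697 with the JeKo-1 label and 3.87 in Granta-519 vehicle libraries, 0.18-fold, without overlap (two-sided exact permutation p = 0.1, the smallest possible). Neither set of genes differed in 1 direction only. The constitutive catalytic gene PSMB7 was lower with the JeKo-1 label (−0.46). Of the 5 immunoproteasome genes 3 were lower and 2 higher, PSME1 (0.606) and PSME2 (0.365).

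After PSMB5, the most positive differences were those of the core chaperones PSMG4 (1.40 ± 0.10), PSMG1 (1.36 ± 0.06) and PSMG2 (1.17 ± 0.07) and of the inhibitor PSMF1 (1.16 ± 0.05). Other assembly factors were mixed. The cap chaperones PSMD5 (0.67, edgeR adjusted p = 1.4e-12) and PSMD10 (0.42, edgeR adjusted p = 3.43e-07) were higher with the JeKo-1 label too. PSMG3 (0.03 ± 0.06; edgeR adjusted p = 0.627) and the cap chaperone PSMD9 (−0.10 ± 0.06; edgeR adjusted p = 0.104) did not pass. The core maturation factor POMP was lower with the JeKo-1 label (−0.17 ± 0.05; edgeR adjusted p = 0.00121). PSMG1 had 117 ± 6.77 CPM with the JeKo-1 label and 45.4 ± 0.93 CPM in Granta-519 vehicle libraries. On the lower side, after PSMB8, were the alpha subunit gene PSMA6 and the ATPase gene PSMC4. PSMA6 had 140.0, 125 and 125 CPM in vehicle with the JeKo-1 label, against 256, 264 and 256 CPM in Granta-519 (−0.99 ± 0.05), and after chidamide 126, 116 and 124 CPM with the JeKo-1 label and 222, 225 and 222 CPM in Granta-519. PSMC4 was at −0.75 ± 0.05 with groups apart. The small differences of PSMB9 (−0.13), PSMA1 (0.13) and PSMC5 (0.15) each lost their call without vehicle replicate 1 of the JeKo-1 label (−0.06, 0.05 and 0.09), PSMB9 also without Granta-519 vehicle replicate 1 (−0.12) or 2 (−0.13) and PSMA1 without Granta-519 vehicle replicate 2 (0.11).

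**Figure D5:**
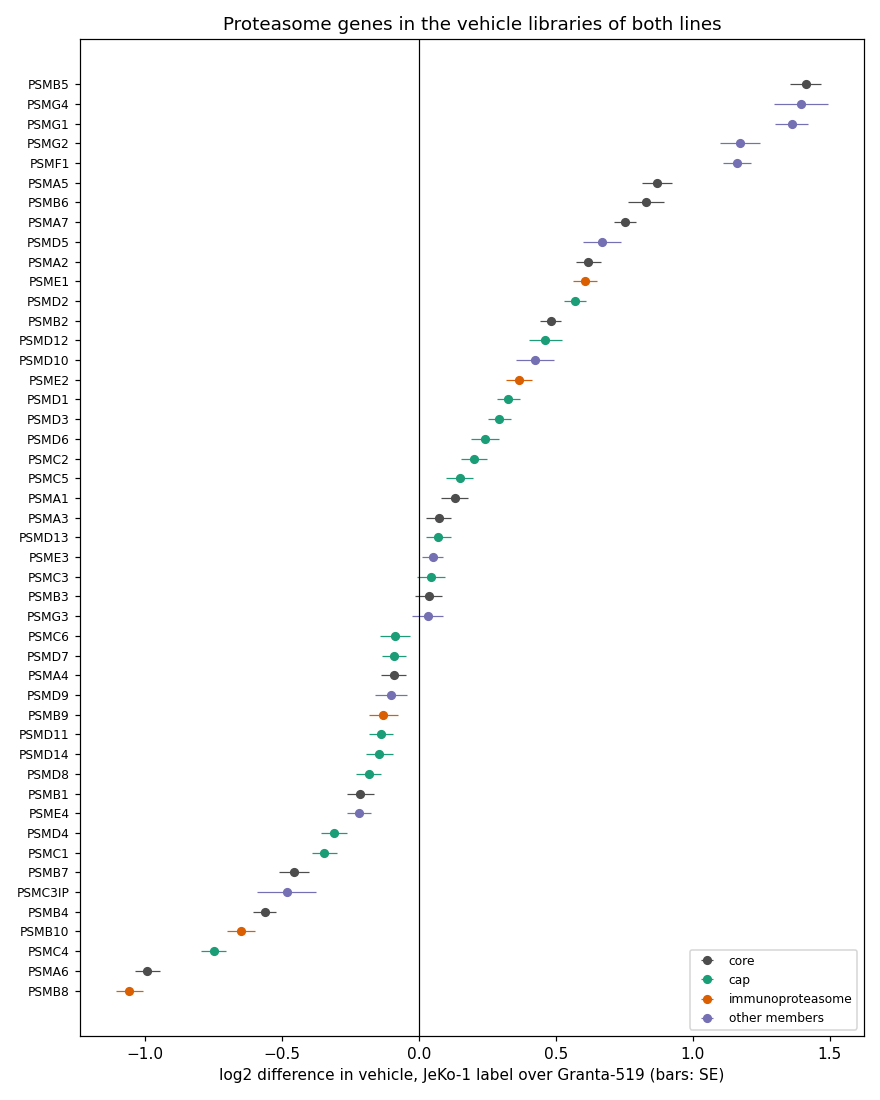
Log2 difference between vehicle libraries, JeKo-1 label over Granta-519, for 47 tested proteasome genes sorted by size and coloured by class, with standard errors as bars; PSMA8 is not drawn. PSMB5 (1.41) and the chaperones PSMG4, PSMG1 and PSMG2 are at the top and PSMB8 (−1.06) at the bottom.

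Genes that work with the proteasome but carry other names were read from lists of 11 to 17 genes. Of 17 proteasome-bound factors 13 fell and 1 rose under the JeKo-1 label (median log2 change −0.31), and 11 fell and 3 rose in Granta-519 (median −0.42). Of all tested genes 31.1% fell and 35.3% rose under the JeKo-1 label, and 31.3% fell and 39.6% rose in Granta-519. ZFAND2A, a stress-induced proteasome partner, changed by −1.16 ± 0.14 and −1.39 ± 0.13, and ADRM1, a ubiquitin receptor of the cap, by −0.88 ± 0.05 and −0.70 ± 0.05. AKIRIN2, which carries proteasomes into the nucleus, rose in both lines (0.32 ± 0.05 and 0.22 ± 0.05). POMP, the maturation factor of the core, did not pass under the JeKo-1 label (0.08 ± 0.05; edgeR adjusted p = 0.127) and rose in Granta-519 (0.12 ± 0.05). RAD23B, a shuttle that brings ubiquitinated proteins, fell under the JeKo-1 label (−0.31 ± 0.04) and rose in Granta-519 (0.19 ± 0.04).

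NFE2L1 is the transcription factor that raises proteasome genes when proteasome activity falls short. It was at 123 ± 5.70 CPM after chidamide and 186 ± 8.13 CPM in vehicle under the JeKo-1 label, and 194 ± 2.57 CPM after chidamide and 259 ± 4.61 CPM in vehicle in Granta-519 (SD, n = 3 each). Its log2 changes were −0.60 ± 0.05 and −0.42 ± 0.04 (edgeR adjusted p = 3.55e-17 and 1.95e-12). A list of 11 genes held NFE2L1, its relative NFE2L2, factors that process NFE2L1 and its MAF partners. Under the JeKo-1 label 8 of them fell (median −0.43), where 31.1% of all tested genes fell. There NFE2L2, NGLY1 and MAFF did not pass. In Granta-519 6 fell and 2 rose (median −0.14), where 31.3% of all tested genes fell and 39.6% rose. DDI2, the protease that activates NFE2L1, fell under the JeKo-1 label (−0.58 ± 0.09) and did not pass in Granta-519 (−0.13 ± 0.12; edgeR adjusted p = 0.33). UFD1L and VCP, which extract it from the membrane, fell in both lines (−0.59 ± 0.06 and −0.95 ± 0.06 for UFD1L, −0.43 ± 0.04 and −0.63 ± 0.04 for VCP). MAFG, a binding partner, changed by −0.54 ± 0.06 and −0.47 ± 0.06, while MAFK fell under the JeKo-1 label (−0.47 ± 0.07) and rose in Granta-519 (0.18 ± 0.07), as did NGLY1 in Granta-519 (0.42 ± 0.07).

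Of 13 genes of ubiquitin and its activation, 6 fell and 3 rose in each line, numbers that such a short list does not set apart from the shares of all tested genes (31.1% lower and 35.3% higher under the JeKo-1 label, 31.3% and 39.6% in Granta-519). The median log2 changes were −0.09 under the JeKo-1 label and −0.05 in Granta-519. CDC34, a ubiquitin-conjugating enzyme, changed by −0.97 ± 0.06 and −1.06 ± 0.07, and UBE2L3, another, by −0.32 ± 0.05 and −0.33 ± 0.05. UBA1, the main activating enzyme, changed by −0.29 ± 0.04 and −0.43 ± 0.04. UBE2D1 rose in both lines (0.42 ± 0.09 and 0.71 ± 0.08), and the polyubiquitin gene UBB rose under the JeKo-1 label (0.22 ± 0.04) and fell in Granta-519 (−0.17 ± 0.04).

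Genes that induce the immunoproteasome or lie beside it in antigen presentation were also counted. Under the JeKo-1 label 13 of 17 rose and 3 fell (median 0.40), where 35.3% of all tested genes rose and 31.1% fell. In Granta-519 12 rose and 4 fell (median 0.42), where 39.6% of all tested genes rose and 31.3% fell. The interferon-gamma receptor gene IFNGR1 changed by 0.77 ± 0.06 and 0.81 ± 0.06, the kinase JAK1 by 0.72 ± 0.04 and 1.27 ± 0.05, and IRF8 by 0.69 ± 0.04 and 0.76 ± 0.04. IRF1, an activator of immunoproteasome genes, rose in both lines (0.40 ± 0.06 and 0.19 ± 0.05), as did NLRC5, the activator of MHC class I genes (0.68 ± 0.06 and 0.61 ± 0.05). IRF9, a partner in the interferon response complex, did not pass under the JeKo-1 label (0.20 ± 0.12; edgeR adjusted p = 0.123) and fell in Granta-519 (−0.48 ± 0.12). TAP1, the peptide transporter gene that lies next to PSMB9, fell in both lines (−0.26 ± 0.05 and −0.59 ± 0.05), TAPBP likewise (−0.40 ± 0.05 and −0.46 ± 0.05), and TAP2 fell under the JeKo-1 label (−0.16 ± 0.04) and rose in Granta-519 (0.24 ± 0.04).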

How the data were processed

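Polyadenylated RNA of 12 libraries, 3 in each of 4 groups, was sequenced on an Illumina instrument, per the labels' protocols. The deposited files give whole-number counts by gene and, in a separate table, a length-scaled score, which was used only as an alternative. STAR and hg19 are named in the submitters' processing notes; for the version, the counter, the annotation and the strand nothing was given in the sources used here. Groups were taken from sample titles.

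Counts were fitted over all genes and 4 groups in edgeR 4.0.16 (R 4.3.3) after filterByExpr and TMM scaling, with quasi-likelihood tests of chidamide against vehicle in each line, of the difference of these effects, and of the lines in vehicle. P-values were Benjamini-Hochberg adjusted over all tested genes, with a threshold of 0.05. The fit shared the estimate of a gene's spread over all groups. Vehicle libraries with the JeKo-1 label were the most spread, with a mean chi-square per gene of 3.12 to 5.63 between replicate pairs. In the other groups it was 1.63 to 3.02, and the p-values do not allow for this difference. CPM use TMM-scaled library sizes. Standard errors come from the quasi-likelihood F, as log2 change over its root. Scripts were tested on simulated data. Ratios of subunits were compared by exact permutation tests in scipy 1.17.1. Transcript lengths are medians of principal protein-coding transcripts of GENCODE 29. Promoter windows are from RefSeq. Within each library the score could not be compared between genes: CPM per score unit per kilobase was 64.0 for PSMB8 and 53.8 for PSMB9, against a median of 5.09 for the other members, and the cause was not tested. Ratios were therefore taken from counts.

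Alternatives were DESeq2 1.42.0 and its size factors, upper-quartile and library-size scaling, no count filter, limma 3.58.1 on log2 of the deposited score plus 0.01, a replicate block, separate fits and leaving out each library. Library values are given for the 5 immunoproteasome genes, for PSMB5, PSMB6 and PSMB7, and for up to 4 genes with the most positive and 4 with the most negative called changes in each comparison. From each context list, up to 3 called genes in each direction and line could be named, besides regulators fixed by name. The members and lists were chosen with earlier results of these data known. Values of some listed genes are not reported here.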

Additional observations from a re-analysis of the deposited data

Results flagged for a closer look

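The log2 effect of chidamide differed between the lines, by the interaction contrast in edgeR (JeKo-1 label minus Granta-519), for 22 proteasome genes. Among 16 with a more positive effect under the JeKo-1 label, the difference was 0.352 for PSMA1, 0.174 for PSMA2, 0.335 for PSMB6, 0.203 for PSMB7, 0.649 for PSMB8, 0.433 for PSMB10, 0.310 for PSMC1, 0.191 for PSMC2, 0.210 for PSMC3, 0.458 for PSMC3IP, 0.213 for PSMC5, 0.262 for PSMC6, 0.265 for PSMD2, 0.297 for PSMD9, 0.575 for PSMD10 and 0.218 for PSMD14. For 6 with a more negative effect it was −0.550 for PSMD5, −0.268 for PSMD7, −0.330 for PSME3, −0.201 for PSME4, −0.611 for PSMG3 and −0.414 for PSMG4.

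The same contrast passed for genes from the lists read beside the proteasome. Of these, KIAA0368, UBA6, UBE2D2 and UBQLN4 are named only here. More positive differences were 0.209 for IRF1, 0.680 for IRF9, 0.167 for KIAA0368, 0.332 for TAP1, 0.138 for UBA1, 0.269 for UBA6, 0.392 for UBB, 0.367 for UFD1L and 0.193 for VCP. More negative differences were −0.190 for ADRM1, −0.442 for DDI2, −0.553 for JAK1, −0.650 for MAFK, −0.179 for NFE2L1, −0.385 for NGLY1, −0.502 for RAD23B, −0.398 for TAP2, −0.247 for UBE2D2 and −0.504 for UBQLN4. Groups of 3 libraries are too small for the check of single libraries that stand apart, which was not run.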

How the results depend on the processing

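Counts that moved by over 1.5 times did so mostly with the scaling of libraries. Under the JeKo-1 label the genes called higher numbered 2, against 6 with upper-quartile scaling (PSMA1, PSMB9, PSMC5 and PSMD10 joined) and 4 with library-size scaling and with the length-scaled score. In Granta-519 they numbered 2, against 1 with no count filter and 1 in a separate fit. Differences between the lines numbered 22 (16 higher and 6 lower), against 35 (32 and 3) with library-size scaling, with no filter and with the score alike. Relative to TMM, the median of all genes moved under the JeKo-1 label by 0.146 with upper-quartile and 0.131 with library-size scaling, and by 0.136 in the difference and −0.137 in vehicle with library-size scaling. The share of higher genes among all called ones was 53.1% under the JeKo-1 label, 64.9% with upper-quartile and 63.7% with library-size scaling. In the difference it was 50.6%, against 70.0%, 72.9% and 63.4% with library-size scaling, no filter and the score.

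Turned signs are listed only for changes that passed in the main setting or in the alternative. Uncalled changes, such as those of PSMA6 and PSMB1 under the JeKo-1 label, turned in sign as well. Signs turned under upper-quartile scaling for PSMA1 (0.1166), PSMC5 (0.1173) and PSME4 (0.0375) with the JeKo-1 label, and for PSME4 there also with library-size scaling (0.0219) and the score (0.0265). In vehicle they turned for PSMA1 (−0.0069 and −0.0175), PSME3 (−0.0866 and −0.0927), PSMB3 (−0.1017, library-size only) and PSMA3 (−0.0710, score only) with library-size scaling and the score. The cause was not tested. PSMA2 and PSMA4 lost their falls under the JeKo-1 label with upper-quartile scaling, library-size scaling and the score. Leaving out each library gave 39 to 42 lower genes under the JeKo-1 label, 41 to 43 in Granta-519, 18 to 22 differences and 36 to 38 in vehicle. Over all alternatives 34 to 42 genes were lower under the JeKo-1 label and 40 to 45 in Granta-519.

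Correlations of libraries with the same replicate number ran from −0.119 to 0.216. Libraries with different numbers were not correlated beside them, so whether replicate numbers pair the libraries was not tested. With the number as a block, 40 genes were lower and 2 higher under the JeKo-1 label, 43 lower and 3 higher in Granta-519, 25 differed between lines and 39 differed in vehicle. The limits are 3 libraries a group of unstated origin, the JeKo-1 label, unknown strand and the absence of spike-in RNA.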
